A study of Mus musculus with 2 samples.

Results

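Gbx1 Lhx8 neurons are postmitotic neurons of the embryonic mouse medial ganglionic eminence (MGE) in which both Gbx1 and Lhx8 were detected. They numbered 232 of the 4001 cells in 1 single-cell RNA library, or 5.80% (exact 95% binomial interval 5.09% to 6.57%, which covers the counting of cells only). Members had a deposited value of at least 10 for Tubb3, a neuronal tubulin, and of at least 3 for Lhx8. They also had at least 1 for Gbx1 and 0 for each of Gbx2, Isl1 and Sst. Cells with Hes5 at 3 or more, or with Top2a and Mki67 summing to 3 or more, were left out as progenitors or dividing cells. These values chose the members, so they are given below as a description and support nothing.

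The MGE is the region of the ventral forebrain that produces cortical interneurons as well as GABAergic and cholinergic neurons of the basal forebrain and striatum. Its neurons inherit the regional factor Nkx2-1 and then use the LIM-homeodomain factors Lhx6 and Lhx8. Lhx6 is best known for its part in GABAergic interneurons, and Lhx8, together with Isl1, for its part in cholinergic neurons. Gbx1 and its relative Gbx2 are gastrulation-brain homeobox factors, which bind DNA through a homeodomain.

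All cells shared 1 strain, stage and dissection: CD-1 embryos at E11.5, MGE tissue, run as 10x Chromium droplets after MULTI-seq labelling, which marks each cell suspension with a lipid-bound barcode before pooling. Embryos in the pool carried the enhancer hs192 or hs799, and of 6 sample barcodes 4 marked GFP-gated suspensions, 2 for each enhancer, and 2 marked ungated ones. No map from cells to those barcodes was used here, so the pool is 1 sample, and the gate can set the share of any cell group. Cells are not replicates: no p-value, standard error or test is given, and every difference below describes this library.

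The members were set against other Lhx8 neurons of the same pool, chosen by the same thresholds with Sst at 0. A group without Gbx1, Gbx2 or Isl1 held 564 cells and is called here the Lhx8 neurons without Gbx1. Another group had Gbx2 but no Gbx1 or Isl1 (66 cells, Gbx2 Lhx8 neurons), and the last had Isl1 but no Gbx1 or Gbx2 (256 cells, Isl1 Lhx8 neurons). All 3 comparisons share the members. A Gbx1 value of 0 does not show that a cell lacked the transcript, so the reference can hold cells of the same kind.

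The deposited values were whole numbers that had been brought to a similar total per cell, and the raw depth is unknown. Members had totals of 10537 to 13733 (median 11863) and a median of 3747.5 genes, beside totals of 10475 to 14196 (median 12506) and a median of 3989 genes over all cells. A small set of cells largely skipped the value 1, and the cause of this gap was not tested. These cells made up 5.17% of members, 9.93% of Lhx8 neurons without Gbx1, 4.55% of Gbx2 Lhx8 neurons and 8.59% of Isl1 Lhx8 neurons. A gene's level below is the sum of its values in a group per 10000 of that group's total. The SD is the spread over single cells of the value per 10000 of each cell's total. Medians, deciles and highest values of single cells are on the deposited scale. A log2 ratio compares 2 levels after adding 0.1 to each. Levels were not divided by gene length, so they are compared between groups and not between genes.

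Gbx1 and Gbx2 are separate genes with closely similar coding sequences, shown here because the grouping rests on telling the transcripts apart. On GRCm38, Gbx1 lies on chr5:24502757-24527202 and Gbx2 on chr1:89927956-89931179, both protein-coding and on the minus strand. A window of 180 bases over the homeobox was taken from the longest open reading frame of each gene in the GENCODE transcripts. It covers bases 952 to 1131 of 1257 in Gbx1 and 745 to 924 of 1047 in Gbx2, and bases that differ are in capitals.
Gbx1: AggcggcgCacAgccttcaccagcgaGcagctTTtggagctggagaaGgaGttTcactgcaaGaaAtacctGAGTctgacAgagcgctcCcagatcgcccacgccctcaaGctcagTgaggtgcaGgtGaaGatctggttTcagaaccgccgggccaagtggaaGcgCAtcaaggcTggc
Gbx2: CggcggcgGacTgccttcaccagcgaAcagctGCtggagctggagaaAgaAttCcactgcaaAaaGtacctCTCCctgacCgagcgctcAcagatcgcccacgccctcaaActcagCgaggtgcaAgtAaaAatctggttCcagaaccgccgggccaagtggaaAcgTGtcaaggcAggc
The windows shared 153 of 180 bases (85%) and differed at 27, and 59 of their 60 codons encoded the same residue. Where along each transcript the reads lay was not analysed here.

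Within the members the Gbx1 value was low and skewed. It was 1 in 110 cells (47.4%), 2 in 43 cells, 3 in 29 and 4 in 23, and the highest cell had 12. Gbx1 was also found in 4.06% of 1059 progenitors (2.95% to 5.43%; Hes5 of at least 3 and Tubb3 under 10; median total 13504) and in 5.52% of 562 neurons with Lhx8 at 0 (3.78% to 7.74%; median total 12159.5). These shares give the background against which a Gbx1 value of 1 has to be read. Detection went up with Lhx8: Gbx1 was found in 8.31% of 385 neurons with Lhx8 at 1 or 2, in 19.5% of 246 at 3 to 5, in 30.9% of 444 at 6 to 10, in 35.8% of 651 at 11 to 20 and in 38.7% of 119 at 21 to 34.

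Lhx8 itself, on chr3:154306294-154330659, ranged from 3 to 34 in members with a median of 12.5, and its level was 10.9 (SD 5.12, n = 232 cells). In Lhx8 neurons without Gbx1 the level was 8.94 and the median 10. Just outside the Lhx8 threshold stood 13 cells at 2 that passed every other criterion, and just inside stood 9 cells at 3. Nr4a2 was found in 0 of the 13 (0% to 24.7%) and in 22.2% of the 9 (2.81% to 60.0%), with overlapping intervals. Lhx6 was found in 92.3% and 100%. Cells that largely skipped the value 1 were 30.8% of the 13 and 0% of the 9. Tubb3 was at least 13 in every member, so no member sat at that threshold.

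The label was checked against the 5 genes given as its markers. Lhx8 and Gbx1 were in all members by the rule, but the other 3 were each in a minority. Nr4a2 was in 50 members (21.6%, 16.4% to 27.4%), Kctd8 in 44 (19.0%, 14.1% to 24.6%) and Pde1a in 38 (16.4%, 11.9% to 21.8%). In progenitors, Nr4a2 was found in 8.69% of cells, Kctd8 in 1.51% and Pde1a in 0.378%. The 3 markers thus stood above that background in members, but a cell chosen by the rule usually lacked a value of each.

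As MGE neurons the members were well marked. Lhx6 was found in 95.3% of them (91.7% to 97.6%), with a median value of 4 and a highest of 16, and Nkx2-1 in 83.2% (77.7% to 87.8%), with a median of 2 and a highest of 13. Gad2, which makes GABA from glutamate, was in 97.4%, Slc32a1, the vesicular GABA transporter, in 81.5%, and Gad1 in 70.3%. Of 20 glutamatergic neuron markers, 11 had a row, 7 of these were at 0 in members, and the list summed to a level of 0.0394. The cholinergic machinery was hardly present: of 9 listed genes 7 had a row, those for choline acetyltransferase (Chat) and the vesicular acetylcholine transporter (Slc18a3) had none, and Cntfr alone was found in at least 10% of cells. Ngfr, a neurotrophin receptor, had a value in 2 members. Summed levels of other cell types were 0.0322 for 3 endothelial markers with a row, 0.0143 for 2 mural, 0.0537 for 4 mesenchymal and 0 for 1 microglial marker. Blood markers, 7 with a row, summed to 1.96 in members and 2.12 in Lhx8 neurons without Gbx1, led by the globin Hbb-y (1.16 and 1.27). The part of these transcripts in the differences below was not tested.

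Against the Lhx8 neurons without Gbx1, the members had more Nr4a2, Tshz2, Robo3, Pbx3 and Adgrl2 and less Npy, Ccnd2, Mfng and Zeb2. Among 8479 genes with a value in at least 10% of the cells of either group, 26 (0.307%) lay past a 2-fold ratio, 13 higher (0.153%), with Gbx1 among them by the rule, and 13 lower (0.153%). The median log2 ratio of all genes was 0.00. The rule split these 2 groups on Gbx1, so the counts describe the split.

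**Figure D1:**
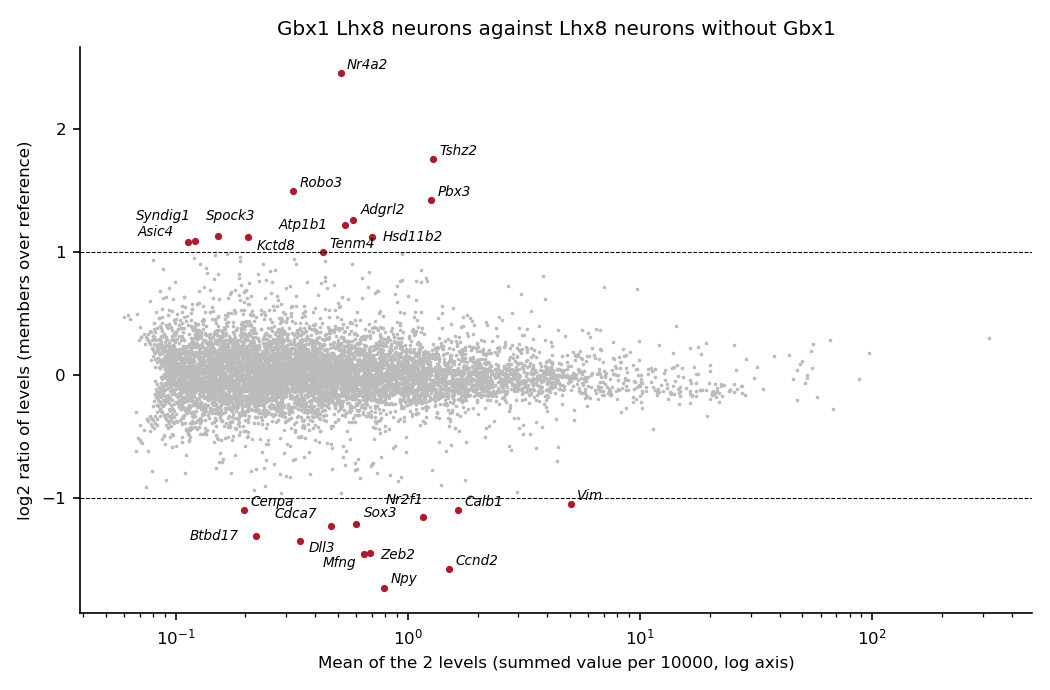
Each point is 1 gene of the comparison, without Gbx1, which the rule used, and without genes not reported here: the horizontal axis gives the mean of the 2 group levels (summed value per 10000, log scale) and the vertical axis the log2 ratio of members over Lhx8 neurons without Gbx1. Red points past the dashed 2-fold lines are named, with Nr4a2 at 2.46 at the top and Npy at -1.73 at the bottom.

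Nr4a2, an orphan nuclear receptor known for its role in dopamine neurons, is on chr2:57106830-57124003. Its value was 0 in most members, 3 at the upper decile and 30 in the highest cell, and the level was 0.941 (SD 2.96). The reference reached a highest value of 5 and a level of 0.0895 (SD 0.383), a log2 ratio of 2.46. A share of 7.09% of the reference had any Nr4a2 (5.11% to 9.53%), no more than the 8.69% of progenitors (7.06% to 10.5%). Cells with Nr4a2 at 3 or more made this plainer: there were 52 in the library, of which 25 were members (48.1%, from 5.80% of the cells), 12 had both Gbx1 and Gbx2, 4 belonged to the reference and 1 was a progenitor. The other Nr4a genes had too few cells to compare: of 3 listed genes 1 was measured in at least 10% of cells. Catecholamine synthesis also needs Th, which stood at 0.726 in members with Nr4a2 and 0.452 in members without (log2 ratio 0.58). In the reference Th stood at 0.635 with Nr4a2 and 0.425 without (0.48), so this difference was not particular to members.

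Tshz2, a teashirt zinc finger factor on chr2:169633013-170071816, was found in 55.6% of members (49.0% to 62.1%) and 26.4% of the reference (22.8% to 30.3%). Its level was 2.05 (SD 3.38) against 0.534 (SD 1.45), a log2 ratio of 1.76. Pbx3, a TALE homeobox cofactor of Hox and other homeodomain proteins, was found in 51.3% of members and 33.0% of the reference, with levels of 1.88 and 0.638 (log2 ratio 1.42). In both genes the ranges of single cells overlapped fully, from 0 upward in each group. Progenitors also had them, Tshz2 in 24.2% of cells and Pbx3 in 64.7%, so neither marks the members by itself.

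Robo3, the receptor known from axons that cross the midline, is on chr9:37415669-37433246 and was found in 31.0% of members (25.1% to 37.4%), 8.51% of the reference (6.34% to 11.1%) and 2.27% of progenitors. Its level was 0.522 (SD 1.02) against 0.120 (SD 0.467), a log2 ratio of 1.5. The related receptors did not differ in this way: Robo1 stood at 0.798 and 0.687, and Robo2 at 1.09 and 1.28. Their ligand Slit2 was low in both groups (0.0537 and 0.104). Of 7 Robo and Slit genes 3 were measured in enough cells, and Robo3 was the 1 past 2-fold.

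The 300 bases around the start sites of Nr4a2 and Robo3, from RefSeq (GRCm38.p6, minus strand, 250 bases before and 50 after the start), are shown because these genes had the largest ratios among those on the gene lists. They were searched on both strands for TAATTA, a core that homeodomain proteins bind, shown in capitals, and for AAAGGTCA, the element bound by Nr4a receptors. The first is at chr2:57123954-57124253 and the second at chr9:37433126-37433425.
Nr4a2: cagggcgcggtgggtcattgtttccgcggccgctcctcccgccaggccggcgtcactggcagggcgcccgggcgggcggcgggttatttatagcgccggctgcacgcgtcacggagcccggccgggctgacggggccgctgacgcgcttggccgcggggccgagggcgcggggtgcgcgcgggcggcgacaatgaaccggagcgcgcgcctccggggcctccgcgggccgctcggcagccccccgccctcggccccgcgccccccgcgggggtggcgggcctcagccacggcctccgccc
Robo3: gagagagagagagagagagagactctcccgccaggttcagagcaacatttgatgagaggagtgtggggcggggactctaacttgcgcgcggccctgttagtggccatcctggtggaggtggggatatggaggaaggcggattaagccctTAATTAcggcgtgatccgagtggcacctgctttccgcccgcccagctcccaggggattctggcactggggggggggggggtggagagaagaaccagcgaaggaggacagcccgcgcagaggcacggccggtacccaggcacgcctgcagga
Robo3 held 1 TAATTA, from base 150 of the window, and Nr4a2 held neither motif. TAATTA was in 5.29% of 32851 promoter windows of this length and AAAGGTCA in 1.51%, and those of Tshz2, Kctd8 and Lhx8 held neither. A match is a run of letters and not a binding site. Gbx1 and Pbx3 had no entry.

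Kctd8, an auxiliary subunit of GABA-B receptors, was in 19.0% of members and 6.91% of the reference (levels 0.319 and 0.0925, log2 ratio 1.12), while the receptor subunit Gabbr1 differed little (0.755 and 0.715). Pde1a, a calcium-dependent phosphodiesterase, was in 16.4% and 7.45% (0.283 and 0.0969, log2 ratio 0.96). With 0.5 added to each level in place of 0.1, its log2 ratio was 0.39. Pde1a was 1 of 8 measured genes of cyclic nucleotide signalling, of which 0 lay past 2-fold and Pde3a (0.90) came next.

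Adhesion molecules differed by list. The immunoglobulin and teneurin list also holds adhesion molecules of other families. Of its 14 measured genes 10 were above 0, 2 past 2-fold higher and 0 lower. Their median log2 ratio was 0.31 against 0.00 for all genes. The 2 past 2-fold were Adgrl2 and Tenm4. Adgrl2, or latrophilin 2, is of neither family (44.8% of members and 24.3% of the reference, log2 ratio 1.26). Tenm4 is a teneurin (35.3% and 17.9%, log2 ratio 1.0). Cntnap2 (0.79) and Negr1 (0.66) followed. Of 11 measured cadherins and protocadherins 8 were above 0 and 0 past 2-fold, with a median of 0.05. The median of the immunoglobulin and teneurin list was 0.13 once cells with a value of Dll3, Mfng or Ccnd2, genes of newly postmitotic cells, had been left out of both groups, a step chosen after seeing the data.

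Outside the lists, 7 further genes lay past 2-fold higher. Atp1b1, the beta subunit of the sodium pump, was found in 49.6% of members and 23.2% of the reference (log2 ratio 1.22). Hsd11b2, which inactivates glucocorticoids, followed at 42.2% and 25.7% (1.13). Syndig1, a synapse-associated membrane protein, was in 15.9% and 3.37% (1.09), Asic4, of the acid-sensing channel family, in 12.9% and 3.37% (1.08), and the proteoglycan Spock3 in 10.8% and 5.32% (1.13). Tshz2 and Pbx3 complete the count. With a pseudocount of 0.5 the genes past 2-fold higher were 4, namely Nr4a2, Tshz2, Pbx3 and, by the rule, Gbx1, while Syndig1 stood at 0.37, Asic4 at 0.36, Spock3 at 0.42, Kctd8 at 0.47, Atp1b1 and Robo3 at 0.72, Hsd11b2 at 0.73, Adgrl2 at 0.76 and Tenm4 at 0.56. On the lower side Ccnd2 and Npy were the 2 genes left past 2-fold at that pseudocount. Atp1b1 (0.94) and Hsd11b2 (0.81) were also within 2-fold without cells that had a value of Dll3, Mfng or Ccnd2. Socs2, an inhibitor of cytokine signalling (0.98), Tmtc2 (0.98), Ebf4 (0.97), Csmd3 (0.95), Tmem178 (0.95), the calcium-binding protein Scgn (0.93), Mmp16 (0.91) and the kinase Plk2 (0.90) stood just below 2-fold.

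**Figure D2:**
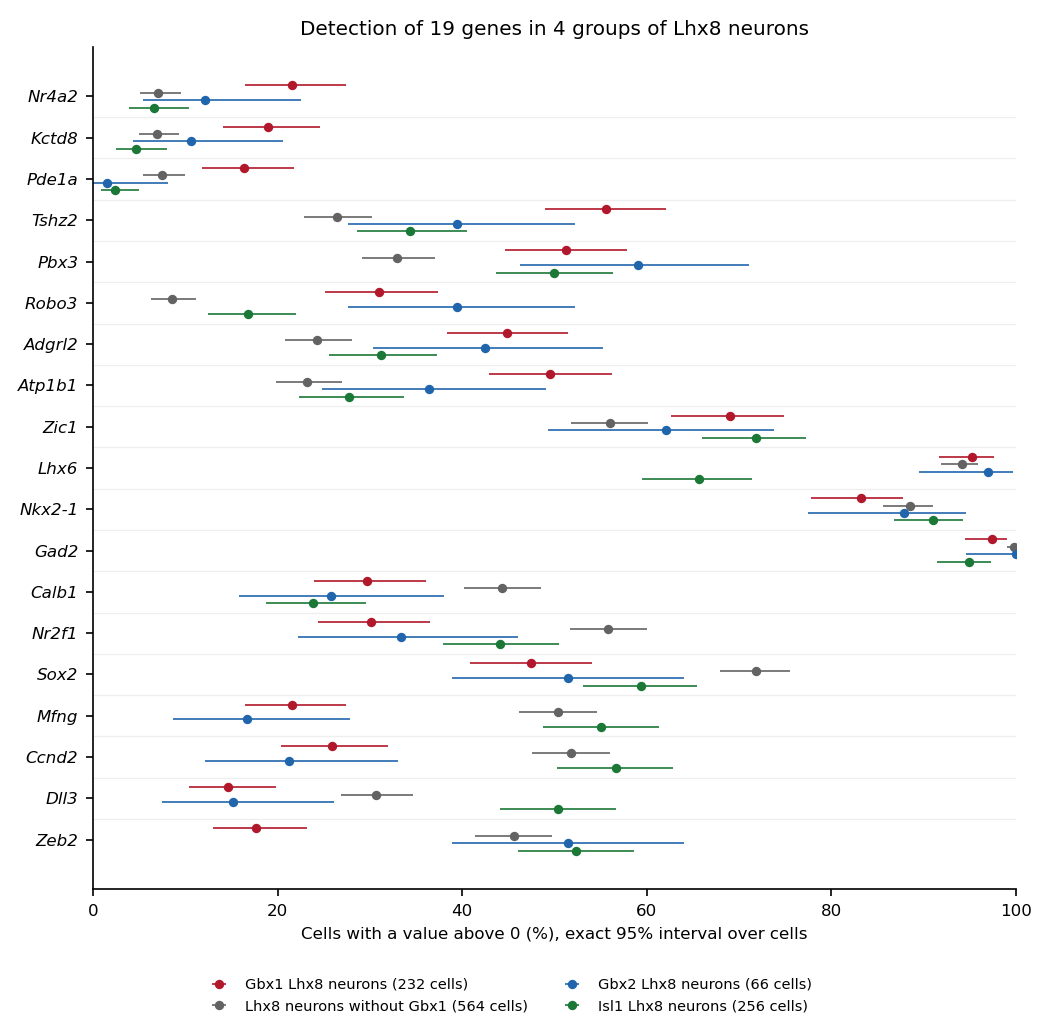
The horizontal axis gives the percentage of cells with a value above 0 for 19 genes (rows) in the 4 groups of Lhx8 neurons, with points for the share and bars for the exact 95% interval over cells. Nr4a2 was in 21.6% of members against 6.64% to 12.1% in the other 3 groups, while Robo3 and Pbx3 were found at similar or higher shares in Gbx2 Lhx8 neurons.

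Genes of newly postmitotic cells were lower in members. Of 11 measured genes of newborn neurons and cell cycle exit, 2 were past 2-fold lower, 0 higher and 10 below 0, with a median of -0.30. Mfng, a Notch-modifying glycosyltransferase, was in 21.6% of members and 50.4% of the reference (log2 ratio -1.46), and the Notch ligand Dll3 in 14.7% and 30.7% (-1.35). Ccnd2, a G1 cyclin, had levels of 0.712 (SD 2.08) and 2.31 (SD 4.31) with a log2 ratio of -1.57, and Cdca7 (-1.23), Cenpa (-1.10) and Btbd17 (-1.31) were lower too. Of 7 measured progenitor markers all 7 were below 0 (median -0.50) and 1 past 2-fold: Vim, an intermediate filament protein, at 3.25 against 6.81. Sox2 stood at 1.21 and 2.497 (-0.98) and Sox3 at 0.322 and 0.873 (-1.21).

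Markers of general neuronal maturation did not show the same split. Of 23 measured genes 16 were above 0 and 0 past 2-fold, with a median of 0.07. The median was -0.02 without cells that had a value of Dll3, Mfng or Ccnd2. Stmn2 stood at 20.5 and 19.4, Dcx at 5.02 and 4.77, Mapt, which encodes tau, at 2.88 and 2.05, and Ina, a neurofilament protein, at 5.01 and 3.86.

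The 2 groups differed in how many cells carried a newborn-neuron gene. A value of Dll3, Mfng or Ccnd2 was absent from 129 of 232 members (55.6%) and from 154 of 564 reference cells (27.3%). Between these 129 and 154 cells, a comparison added after seeing the data, Nr4a2 had a log2 ratio of 2.84, Robo3 1.68, Tshz2 1.47 and Pbx3 1.43, of which Tshz2 alone was nearer to 0 than over all cells. Npy stood at -1.91, Calb1 at -1.32 and Nr2f1 at -0.98. Zeb2 stood at -1.28, Sox2 at -0.64, Vim at -0.43, Cdca7 at -0.26 and Tenm4 at 0.49, all nearer to 0 than over all cells. The label markers Kctd8 (1.02) and Pde1a (0.61) were nearer to 0 as well. In this smaller set 19 genes were past 2-fold higher and 6 lower.

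Genes of cortical interneurons were lower in members where they differed. Of 19 measured genes of interneuron migration and maturation, 3 were past 2-fold lower, 0 higher and 16 below 0, with a median of -0.36. Npy, a neuropeptide, was in 10.3% of members (highest value 17) and 20.2% of the reference (highest value 56), at levels of 0.315 and 1.27. The calcium-binding protein Calb1 was in 29.7% and 44.3%, at 1.02 (SD 2.97) and 2.29 (SD 4.81), a log2 ratio of -1.10. Nr2f1, a nuclear receptor also known from caudal eminence cells, was in 30.2% and 55.9% (0.687 and 1.65, log2 ratio -1.15). Zeb2, which directs interneurons toward the cortex, was not on the list and had levels of 0.322 and 1.05 (-1.45). Lhx6 (0.04), Erbb4 (-0.19) and Nxph1 (-0.20) differed little, and Sox6 stood at 2.19 against 3.40 (-0.61).

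Transmitter genes and the factors above them differed less. All 5 measured GABA genes lay within 2-fold: Gad2 stood at 7.39 (SD 4.03) and 7.53 (SD 3.90), Slc32a1 at 2.004 and 2.13, and Gad1 at 1.30 and 1.68. The 6 genes of the Dlx family, which promotes the GABAergic program, were all below 0 with a median of -0.46 and 0 past 2-fold, from Dlx5 (-0.05) to Dlx1 (-0.48) and the antisense Dlx1as (-0.53), whose reads may not be separable from those of Dlx1. Nkx2-1 was at 2.70 (SD 2.44) and 3.60 (SD 2.92). Zic1, a zinc finger factor known from the midline and septal forebrain, was at 3.71 and 2.84. The 3 measured Zic genes had a median of 0.37, which was 0.14 without cells that had a value of Dll3, Mfng or Ccnd2. Shh stood at 1.10 and 0.697 (0.59), Pou3f1 at 3.40 and 2.02 (0.73) and Zfhx4 at 1.55 and 0.853 (0.79).

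The listed semaphorin, Eph and voltage-gated channel genes stayed within 2-fold. Among 12 measured semaphorin, neuropilin and plexin genes 9 were above 0 (median 0.14), led by Plxna4 (0.558 and 0.291) and Nrp2 (0.655 and 0.386). Of 13 Eph receptors and ephrins 6 were above 0 and 7 below, from Epha4 (-0.89) to Efna3 (0.92). Voltage-gated channel genes had 9 of 13 above 0 (median 0.23), with Cacna2d2, a calcium channel subunit, at 0.608 and 0.272 (0.93). Gria2, an AMPA receptor subunit, was at 1.46 and 0.822 (0.76).

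Several differences from the Lhx8 neurons without Gbx1 were larger at higher Gbx1 values. The rule used this value and most of the genes were named from the split at 0, so the step from 0 describes that split. The genes were chosen with values seen. Reference cells at 0 (564 cells) were followed by members at 1 (110), at 2 (43) and at 3 or more (79), whose median totals were 11830, 11809, 12040 and 11882. Nr4a2 was found in 7.09%, 12.7%, 18.6% and 35.4% of these cells, and its level was 0.0895, 0.530, 0.460 and 1.77. Tshz2 was in 26.4%, 45.5%, 51.2% and 72.2%, and Socs2 stood at levels of 0.602, 0.886, 1.13 and 1.93. On the lower side Ccnd2 had levels of 2.31, 1.03, 0.614 and 0.325, Calb1 2.29, 1.72, 0.595 and 0.273, Nr2f1 1.65, 1.01, 0.614 and 0.283, and Sox2 2.497, 1.62, 1.17 and 0.672. Rprm, a cell cycle inhibitor gene, went from 5.34 to 4.87, 3.01 and 1.93.

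Not every gene followed this order. Robo3 was in 8.51%, 28.2%, 41.9% and 29.1%, and Pbx3 in 33.0%, 55.5%, 48.8% and 46.8%, so both were highest at 1 or 2. Kctd8 was in 6.91%, 20.9%, 16.3% and 17.7%. Lhx6 (levels 3.47, 3.48, 3.72 and 3.63) and Stmn2 (19.4, 20.8, 20.6 and 20.1) were nearly level. Members at 1 therefore lay between the reference and the members with more Gbx1 for most of these genes. These cells also sit just inside the Gbx1 threshold.

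**Figure D3:**
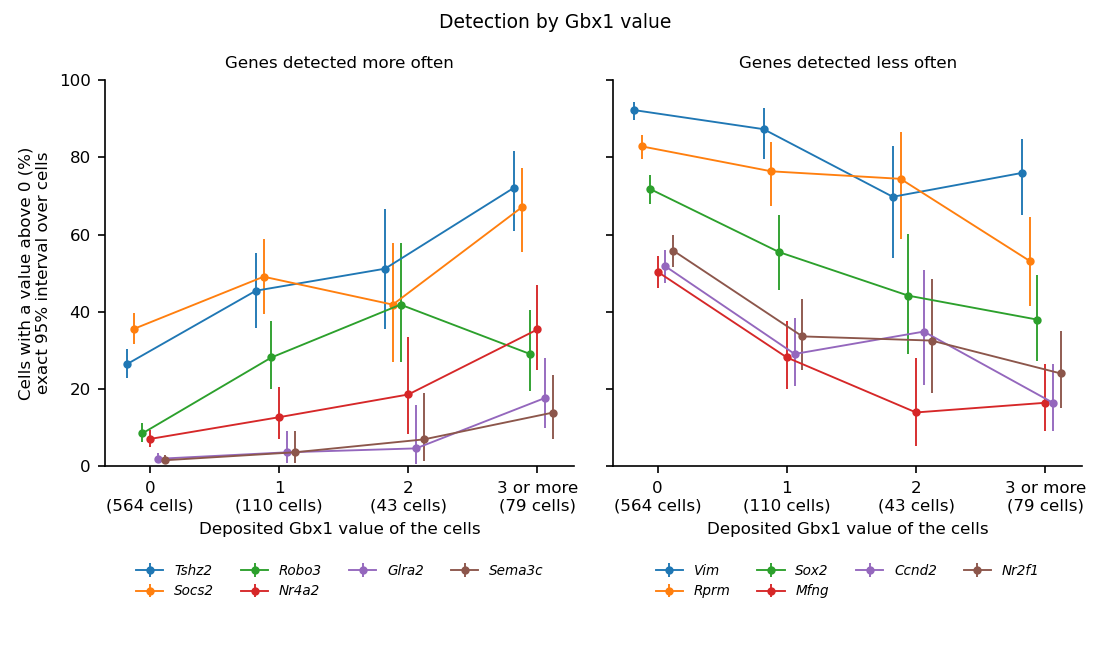
The horizontal axis groups Lhx8 neurons by their deposited Gbx1 value (0, 1, 2, and 3 or more; number of cells in brackets) and the vertical axis gives the percentage of cells with a value above 0 for the named gene, with exact 95% intervals over cells. Nr4a2 goes from 7.09% to 35.4% on the left and Sox2 from 71.8% to 38.0% on the right. The genes were chosen with values seen, most of them from the split at a Gbx1 value of 0.

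The Gbx2 Lhx8 neurons were the nearest of the other groups in several of these genes. Of 8706 genes tested in the same way, 48 (0.551%) lay past 2-fold, 22 higher in members (0.253%) and 26 lower (0.299%), with only 66 cells in the reference. Members had more Nr4a2 (0.941 and 0.138, log2 ratio 2.13), Pde1a (0.283 and 0.0125, 1.77), the growth factor Ptn (0.755 and 0.238, 1.34) and the interneuron gene Nxph1 (1.16 and 0.477, 1.12). Scgn was in 10.3% of members and in 0 of the 66 cells, which allows a share of cells with a value of up to 5.44% there (exact interval, for the drawing of cells and not for missed transcripts). Members had less Zeb2 (0.322 and 2.43, -2.59), the adhesion molecule Cadm1 (0.240 and 1.59, -2.32), the forkhead factor Foxp2 (0.319 and 1.34, -1.79) and Zfhx3, an AT-rich motif binding factor (1.84 and 6.40, -1.74). Id4 (-1.73), Npy (-1.43), Tspan7 (-1.43) and the adhesion molecule Ncam2 (-1.35) followed.

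Robo3 and Pbx3 were not higher in members than in Gbx2 Lhx8 neurons: Robo3 stood at 0.522 and 0.627 (-0.22) and Pbx3 at 1.88 and 2.75 (-0.53). Tshz2 was at 2.05 and 1.67 (0.28). Mfng (0.04) and Sox2 (-0.00) were also level, and 62.1% of the Gbx2 cells, beside 55.6% of members, had no value of Dll3, Mfng or Ccnd2. The 23 measured genes of neuronal maturation had a median of -0.11 and the 17 of adhesion -0.25, with 1 and 2 past 2-fold lower in members.

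Isl1 Lhx8 neurons stood farther away. Of 8748 genes tested 144 (1.65%) lay past 2-fold, 45 higher in members (0.514%) and 99 lower (1.13%). Members had more Khdrbs2, an RNA-binding protein (62.1% and 23.4% of cells, log2 ratio 2.01), the glypican Gpc6 (56.5% and 16.02%, 1.92), Socs2 (1.89), Pacsin1 (1.68), Ripor2 (1.66) and Bcl11a, a zinc finger factor of neuronal development (6.71 and 2.16, 1.59). Lhx6 stood at 3.58 and 1.63 (1.09) and Nr4a2 at 0.941 and 0.0955 (2.41). Members had less Lmo1, a LIM-only cofactor (0.687 and 3.02, -1.99), Zfhx3 (1.84 and 6.18, -1.69) and Slit2 (0.0537 and 0.283, -1.32), and less of the neurofilament gene Nefl (0.0966 and 0.513, -1.64).

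Newborn-neuron genes were again lower in members than in Isl1 Lhx8 neurons: Dll3 stood at 0.150 and 1.25 (-2.43), Gadd45g at 0.347 and 1.82 (-2.10), Ccnd2 at 0.712 and 3.36 (-2.09), and 6 of 11 measured genes of that list were past 2-fold lower (median -1.30). Of the Isl1 cells 27.7% had no value of Dll3, Mfng or Ccnd2. The part of this difference in the ratios of other genes was not tested. Zic4 was lower in members (0.501 and 1.09, -0.99), while Zic1 was similar (3.71 and 4.21).

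Gbx1 was detected in a larger share of the Lhx8 neurons with Gbx2 than of those without. In the 1351 Lhx8 neurons with Sst at 0, Gbx1 was in 63.2% of the 242 cells with Gbx2 (56.8% to 69.3%) and 26.1% of the 1109 without (23.5% to 28.7%). With Isl1 the order was the opposite: 23.8% of 366 cells with Isl1 (19.5% to 28.5%) and 36.0% of 985 without (33.0% to 39.1%). Requiring Gbx2 and Isl1 at 0 thus left out 210 of the 442 cells with Gbx1: 123 with Gbx2 alone, 57 with Isl1 alone and 30 with both.

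Cells with both Gbx genes and no Isl1 carried Nr4a2 as often as members. It was at 3 or more in 9.76% of the 123 (5.14% to 16.4%) and in 10.8% of members (7.10% to 15.5%). Against members, 16 of 8668 genes (0.185%) lay past 2-fold higher and 22 (0.254%) lower in the cells with both. Foxp2 was at 2.04 and 0.319 (log2 ratio 2.35), Zeb2 at 1.55 and 0.322 (1.97), the adhesion molecule Chl1 at 1.11 and 0.236 (1.85), Syndig1 at 0.615 and 0.200 (1.25) and Pbx3 at 4.29 and 1.88 (1.15). Kitl, the Kit ligand (-1.56), Ccnd2 (-1.53), Sox2 (-1.51), Calb1 (-1.50) and Rprm (-1.41) were lower. These genes, and those of the next sentence, were named after their values were seen. In cells with Gbx1 and Isl1, 28 of 8909 genes (0.314%) were past 2-fold higher than in members and 17 (0.191%) lower, with Ebf1 (2.06; 10.5% of these cells and 6.03% of members), a striatal factor, and the opioid precursor gene Pnoc (1.55; 43.9% and 18.5%) higher and Nr4a2 (-1.24) lower.

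The members were not uniform in Nr4a2. The 50 cells with a value and the 182 without had median totals of 11984 and 11840.5. Of 8914 genes 69 (0.774%) lay past 2-fold higher and 46 (0.516%) lower in the cells with Nr4a2. At the higher end were Spock3 (0.875 and 0.0731, log2 ratio 2.49), Rgs4, a regulator of G protein signalling (2.22), the secreted guidance cues Sema3c (0.429 and 0.0320, 2.0) and Sema3e (1.80), the glycine receptor subunit Glra2 (1.78), Camk2d (1.73), and the netrin receptor Unc5c (1.58). Zfhx3 (-1.58), Nr2f1 (-1.55), Nr2f2 (-1.84) and Vim (-1.34) were at the lower end. These genes were named after their values were seen.

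The other markers of the label went with Nr4a2. Kctd8 was in 36.0% of members with Nr4a2 (22.9% to 50.8%) and 14.3% without (9.55% to 20.2%), and Pde1a in 26.0% (14.6% to 40.3%) and 13.7% (9.09% to 19.6%), the latter with overlapping intervals. Lhx8 (11.1 and 10.8), Gad2 (6.996 and 7.50) and Stmn2 (20.4 and 20.6) were alike in both. Robo3 was in 36.0% and 29.7%, also with overlapping intervals, and was tied to other genes: members with Robo3 had Tshz2 in 75.0% and Pbx3 in 70.8%, those without in 46.9% and 42.5%.

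In Lhx8 neurons without Gbx1 the same split, 40 cells with Nr4a2 against 524, had 11 of 8902 genes (0.124%) past 2-fold higher and 24 (0.27%) lower. Kctd8 went with Nr4a2 there too, at a log2 ratio of 1.21 beside 1.23 in members, and Pde1a stood at 0.69 beside 1.23. Of the 12 genes at the higher end in members, 10 had the same sign there and 1 was past 2-fold, with a median of 0.24 beside 1.75 in members. At the lower end 8 of 12 had the same sign, 1 past 2-fold, with medians of -0.27 and -1.48. Because the genes were chosen at the ends of the members' ranking, the members' values are large by that choice. The 2 splits also differ in the Nr4a2 values themselves. Of the 40 reference cells with Nr4a2, 27 had a value of 1 (median 1), beside 17 of the 50 members (median 2.5). The part of this in the smaller ratios of the reference was not tested.

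The members also varied in Zic1. Members with Zic1 at 4 or more (92 cells) and at 0 (72) were compared, a cut set with values known. Of 8645 genes 39 (0.451%) lay past 2-fold higher and 71 (0.821%) lower with Zic1. Zic4 (1.197 and 0.0115, log2 ratio 3.54), which lies beside Zic1 in the genome, Fgf15 (0.390 and 0, listed at 0 without Zic1), Slc10a4, a vesicular transporter-like protein of cholinergic and monoaminergic neurons (1.08 and 0.253, 1.74), and Zfp423 (1.66) were higher. Nr2f2 (0.0272 and 0.793, -2.81), Lmo3 (-2.31), Sox2 (0.453 and 2.25, -2.09), Epha5 (-1.89), Maf (listed at 0 with Zic1), Nxph1 (-1.70) and Nr2f1 (-1.68) were lower. In Lhx8 neurons without Gbx1 (180 and 248 cells), 38 of 8556 genes (0.444%) lay past 2-fold higher with Zic1 and 34 (0.397%) lower. There all 12 genes of each end had the same sign, 8 and 11 past 2-fold, with medians of 1.26 and -1.58 beside 1.59 and -1.92 in members. Rgs16 (1.64 in members and 0.31 there) and Mdk (1.33 and 0.40) were among those nearer to 0, and Nr4a2 stood at -0.40 in members and 0.62 there. These genes too were named after their values were seen.

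The 2 splits crossed. Nr4a2 was in 23.8% of the 160 members with any Zic1 (17.4% to 31.1%) and 16.7% of the 72 without (8.92% to 27.3%), with overlapping intervals. Tshz2 was lower with Zic1 at 4 or more (1.01 and 2.91), whereas Gad2 (8.16 and 7.22) and Kctd8 (0.254 and 0.264) were similar.

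**Figure D4:**
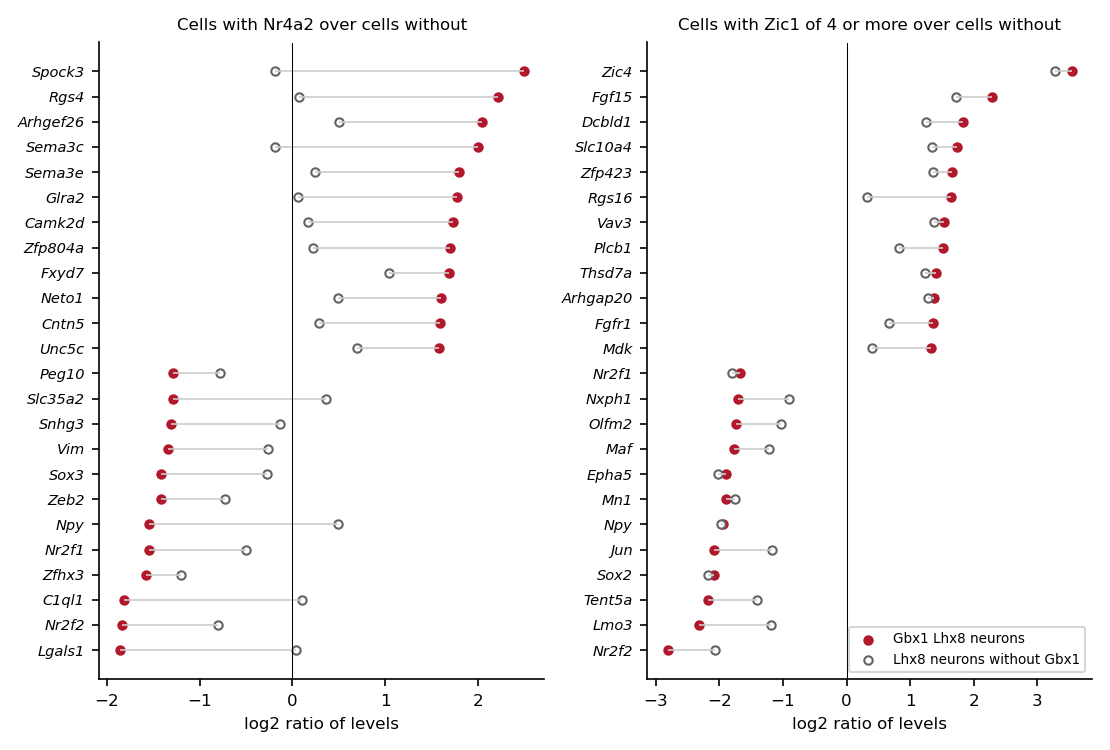
For 24 genes in each panel the horizontal axis gives the log2 ratio of levels between cells with and without Nr4a2 (left) and between cells with Zic1 at 4 or more and at 0 (right), in members (filled) and in Lhx8 neurons without Gbx1 (open). Genes were taken from the ends of the members' ranking. The median of the 12 higher genes was 0.24 (open) and 1.75 (filled) on the left and 1.26 and 1.59 on the right. On the left, 27 of the 40 Lhx8 neurons without Gbx1 that had Nr4a2 were at a value of 1.

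Members lay near each other, and near cells with both Gbx genes, when the 9 genes of the rule were left out. Among the 2407 postmitotic neurons, each cell's 15 nearest neighbours were found from 2000 variable genes and 30 principal components. Of the members' neighbours 28.1% were members, beside their 9.64% share of the neurons, 30.5% were Lhx8 neurons without Gbx1 and 13.2% had both Gbx1 and Gbx2. Neurons without Lhx8 were 2.99% of the members' neighbours and 23.3% of the neurons, so the 9.64% is a low base for Lhx8 neurons. Members were 232 of the 1351 Lhx8 neurons with Sst at 0. The part of Lhx8 identity in the 28.1% was not tested. Of the neighbours of Lhx8 neurons without Gbx1, 11.9% were members, of those of cells with both Gbx genes 27.5%, of those of Isl1 Lhx8 neurons 5.05%, and of those of neurons without Lhx8 0.937%. A member had 0 to 10 members among its 15 neighbours, with a median of 4, and 17 members (7.33%) had none. Most neighbours of members were thus cells outside the group. With Gbx1 of at least 2, the 122 remaining members made up 5.07% of the neurons and 20.4% of each other's neighbours.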

How the data were processed

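Cells of 1 pooled 10x MULTI-seq library were profiled. The submitters' processing notes name Cell Ranger 3.0.2, bcl2fastq and the build GRCm38. The authors deposited 18088 genes by 4001 cells as whole numbers up to 1245. These deposited values were treated as a score that the authors made from UMI counts, because cell totals were nearly equal. No source used here names the scaling step, and planned Poisson intervals were dropped.

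Levels, ratios and exact intervals were computed with numpy 2.4.6 and scipy 1.17.1, and neighbours with scanpy 1.11.5. The ratio code was checked on simulated Poisson counts that lacked the scaling of the deposited values. Changes were planted there only in genes above a minimum level, so ratios of low genes were not checked. A pseudocount of 0.1 was used, on genes in at least 10% of cells of either group. Scrublet (expected rate 5%) called 6 cells (0.150%), 0 of them members. Whether it can find doublets in these scaled values was not tested, so doublets may remain. Of 528 genes on 37 lists 462 had a row. Some genes are not reported here. Of rows that shared a symbol (9 symbols), the one with the highest sum was used. No mitochondrial genes were present.

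Named genes were those of the rule, at most 8 per list, and outside the lists 15 at each end of the ranking against Lhx8 neurons without Gbx1 and 8 at each end of the other 2. Other genes were named with values seen. These are Rprm, Sema3c and Glra2 by Gbx1 value, and genes of the splits and of cells with Gbx1 and also Gbx2 or Isl1. Members, lists and comparisons were chosen with earlier results of these data known.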

Additional observations from a re-analysis of the deposited data

How the results depend on the processing

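No cell can be assigned to an embryo or enhancer, raw depth is unknown, and 1 library gives no replicate error. No paired analysis was possible because the columns carry no sample. Leaving out a replicate could not be run either. With Gbx1 of at least 2 the members were 5.07% of postmitotic neurons, and 88 genes lay past 2-fold against Lhx8 neurons without Gbx1 and 81 against Gbx2 Lhx8 neurons (the references were unchanged). The pseudocount set the counts of genes past 2-fold. At 0.02 they were 92 against Lhx8 neurons without Gbx1, 243 against Gbx2 and 345 against Isl1 Lhx8 neurons, and at 0.5 they were 6, 10 and 33. With detection in at least 20% of cells, 29 genes differed from Gbx2 Lhx8 neurons. Leaving out cells with a value of Dll3, Mfng or Ccnd2, which was chosen after seeing the data and left 41 Gbx2 and 71 Isl1 cells, gave 104 and 265. Apart from the pseudocount itself, the cause of these shifts was not tested. Where a setting made groups smaller, their make-up changed as well. An Lhx8 minimum of 5, a Tubb3 minimum of 20, values not rescaled, detection in at least 5% of cells, a reference weighted to the members' Lhx8 values, and leaving out cells that skip the value 1 kept each count within 1.5 times the reported one. Leaving out Scrublet calls left every value as it was and says nothing about stability. The members' share of their own neighbours was 26.8% to 29.0% apart from the 20.4% given above. Of 725 values of single genes and lists that a setting could change, against Lhx8 neurons without Gbx1, 685 moved by less than 1.5 times, 40 by more, and 0 past 2-fold changed sign. The 40 include Ccnd2, Dll3 and Mfng, which are at 0 by the step that leaves out cells with a value of them. Changes of sign within 2-fold were not counted, and in that step Stk33 went from -0.91 to 0.18.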
